A study of Mus musculus with 53 samples.

Results

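Tumours of the WGD+ form of TA3 Hauschka, a murine mammary tumour line, were compared at day 14 and day 8 after injection. The rule took the WGD+ columns of the time course, which are 3 libraries at day 14 and 3 libraries at day 8, or 6 of the 53 libraries of the series. All 6 grew orthotopically in female A/J mice aged 6 weeks, an inbred strain with a working immune system, after cells carried in 50% Matrigel were placed in the inguinal fat pad. The labels name no drug or antibody for these libraries. The WGD- form, which carries no engineered whole genome doubling, was collected at the same days with 3 libraries each, and serves to ask whether the day effect differs between the forms. Its libraries also enter the filter on low values and the estimate of spread behind each WGD+ test. The labels do not say whether WGD+ is a single clone or whether each library is 1 animal, so the p-values below measure the spread between these libraries, which may be in part technical.

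A doubled genome gives a tumour cell extra chromosome sets, and is known to burden division, protein production and the sensing of misplaced DNA. A transplanted tumour can outgrow its first blood supply, remodel the matrix that held the injected cells and meet the T cells of its host. Secreted and membrane proteins are made at the endoplasmic reticulum, where chaperones and glycosylation enzymes are raised by the unfolded protein response, and the same membrane holds the sensor that switches on cholesterol synthesis when sterol is low.

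The libraries hold between 5248955 and 12217113 assigned reads, and levels are given as log2(CPM + 1), where CPM is the count scaled to library size and by the authors' factors. The third day 8 library of the WGD+ form stood apart. Its skeletal muscle list of 20 genes took 3.69% of scaled reads, against 0.0169 to 0.0244% in the WGD+ day 14 libraries and 0.0132 to 0.0144% in the other day 8 libraries, and Acta1, skeletal muscle actin, read 12.12 there. It was also the shallowest library. A score from genes that separated WGD+ from WGD- vehicle tumours in NSG hosts, higher where a library is more like WGD+, was 0.94, 0.58 and 0.15 in WGD+ day 14 libraries and 0.21, 0.67 and -0.23 in WGD+ day 8 libraries. In WGD- tumours it was -0.55, -0.60 and -0.40 at day 14 and -0.27, -0.81 and 0.32 at day 8, so both libraries numbered 3 at day 8 scored with the other form. For the WGD+ one the parts of the score went apart. Its score genes higher in WGD+ stood at -0.56, the lowest of all libraries. Its score genes lower in WGD+ stood at -0.33, within the -0.58 to -0.004 of the other WGD+ libraries. That part was -0.12 in the third WGD- day 8 library and 0.35 to 0.64 in the other WGD- libraries. Over all genes tested, the third WGD- day 8 library correlated best with the second WGD+ day 14 library (0.985), against 0.962 within its own group. So did the third WGD- day 14 library (0.973 against 0.958). The third WGD+ day 8 library correlated best within its own group, with the first WGD+ day 8 library (0.941). In the day 8 libraries numbered 3, Slc7a11, the cystine carrier, read 5.02 (WGD+) and 7.06 (WGD-), against 5.93 to 6.29 in the other WGD+ libraries and 4.07 to 5.19 in the other WGD- libraries. The counts of the WGD+ day comparison, and the differences of most genes named in it, are therefore also given without the third WGD+ day 8 library. The epithelial keratins Krt8 and Krt18 lay between 7.17 and 9.94 in all 6 WGD+ libraries, and Epcam between 5.54 and 8.23, so epithelial markers of a mammary tumour were present at both days.

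**Figure D1:**
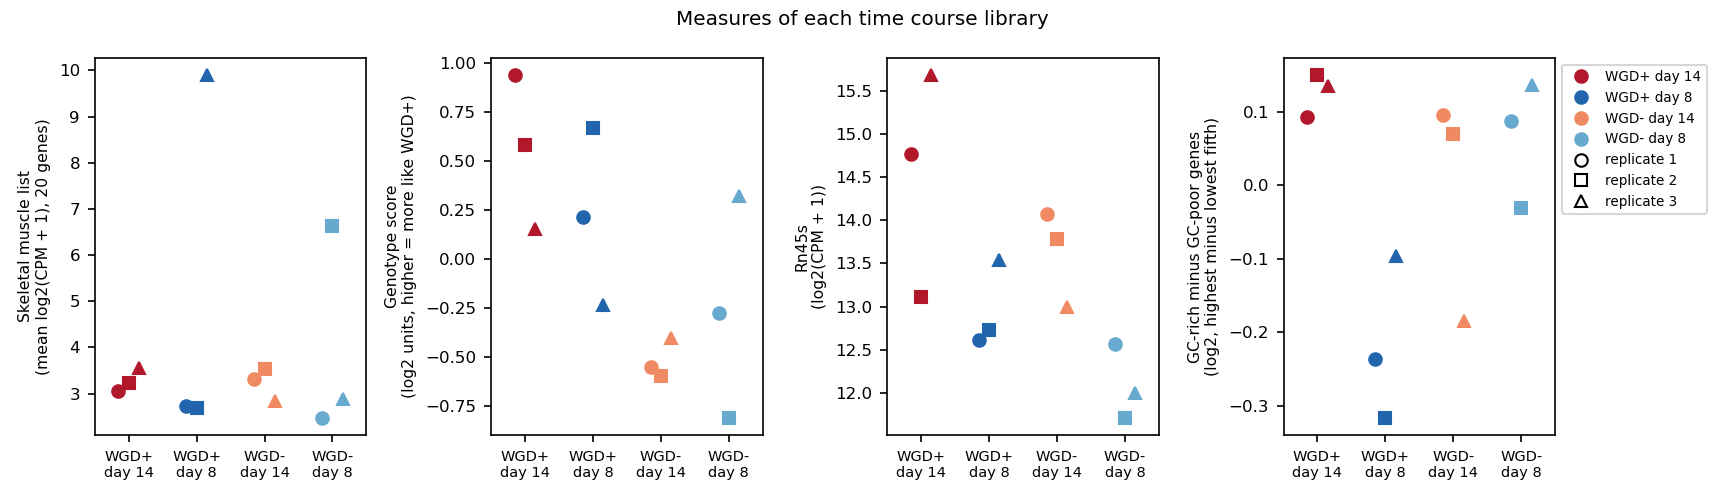
Each point is 1 of the 12 time course libraries, with WGD+ tumours at day 14 and day 8 on the left and WGD- tumours on the right of each panel. The panels show the mean level of 20 skeletal muscle genes, the genotype score, the level of Rn45s (ribosomal RNA precursor) and the level of GC-rich genes minus that of GC-poor genes, each library relative to the gene means. The third WGD+ day 8 library is highest for muscle, and the 3 WGD+ day 8 libraries lie between -0.32 and -0.10 on the GC axis, below the 0.09 to 0.15 of the day 14 libraries.

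Of 13478 genes tested, 1514 (11.2%) passed an adjusted p of 0.05, with 944 (7.0%) higher and 570 (4.23%) lower at day 14. The median difference of the higher genes was 1.09 and that of the lower genes -0.83, beside -0.05 over all genes tested. Without the third day 8 library 273 genes (2.03%) passed, 184 (1.37%) higher and 89 (0.66%) lower, and 266 of them (1.97%) were among the 1514 with the same sign. The count rests on single libraries at both days. It was 220 without the first day 8 library, 1458 without the second, 282 and 317 without the first and second day 14 libraries, and 0 without the third, where limma gave a smallest adjusted p of 0.0518 and 3278 genes at an unadjusted p under 0.05. In the WGD+ day comparison no list member therefore passed without the third day 14 library. The WGD- libraries bear on the count through the shared spread: it lay between 1144 and 2202 when 1 of them was left out, and with the WGD+ libraries alone it was 2164 (1105 higher and 1059 lower), or 1701 (843 higher and 858 lower) without the third day 8 library. In 5623 genes (41.7%) the 3 libraries of one day did not overlap with the 3 of the other, 19.8% with day 14 above day 8 and 21.9% with day 14 below it. In bulk tumours, fewer cells of a type and less RNA per cell cannot be told apart.

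The genes that passed differed in base composition. Transcripts of the higher genes had a median GC content of 52.9% and those of the lower genes 45.9%, against 50% for all tested, and their median lengths were 2927 and 3918 bases against 3293. Of the 5 equal bins of GC content, the lowest held 78 genes that rose and 224 that fell, and the highest 297 that rose and 50 that fell. With the GC trend of each library removed 1456 genes passed (974 higher and 482 lower), and 1159 of these were among the 1514. The trend-removed count was 208 without the third day 8 library. Rn45s, the ribosomal RNA precursor, took 2.79, 0.883 and 5.27% of scaled reads at day 14 and 0.626, 0.680 and 1.19% at day 8. The part of either in the results was not tested beyond these values.

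The largest rises that passed with and without the third day 8 library were in Wif1, Dcpp1 and Tex101. Wif1, a secreted inhibitor of Wnt ligands (chr10:121033960-121100650, plus strand, mm10), read 3.97, 3.66 and 4.61 at day 14 and 0.17, 1.04 and 0.25 at day 8. No library of one day reached the levels of the other, and the difference was 3.60 (SE 0.53, adjusted p = 0.014) with all libraries and 3.48 (adjusted p = 0.0403) without the third day 8 library. Dcpp1, a protein of salivary secretions, read 3.46, 2.59 and 5.18 at day 14 and 0.17, 0.00 and 0.46 at day 8, where 1 read is worth 0.106 to 0.185 CPM, so its day 8 values rest on 0 to 2 reads. Its difference of 3.54 (SE 0.63, adjusted p = 0.0142, and 3.66 without the third day 8 library) understates the ratio, as for every gene near 0 on this scale. Tex101, a membrane-anchored glycoprotein best known from germ cells, read 6.29, 6.22 and 6.58 at day 14 against 3.84, 4.32 and 2.18 at day 8, a difference of 2.92 (2.28 without the third day 8 library).

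Scara5, a receptor for ferritin, read 4.78, 4.84 and 6.25 at day 14 and 2.74, 3.58 and 2.50 at day 8, with a difference of 2.35 (SE 0.42, adjusted p = 0.0142). Efna1, the ephrin-A1 ligand, read 5.97, 6.17 and 6.52 at day 14 against 4.47, 4.53 and 3.20 at day 8. Esyt3, which tethers the endoplasmic reticulum to the plasma membrane, read 4.48, 5.38 and 5.87 at day 14 against 3.38, 3.35 and 2.54 at day 8. In each of these the lowest day 14 library lay above the highest day 8 library, as in 19.8% of all genes tested. Scara5 differed by 2.13 without the third day 8 library, Efna1 by 2.15 with it and 1.72 without it, and Esyt3 by 2.15 and 1.88. Igfbp2, which binds insulin-like growth factors, differed by 1.59 without the third day 8 library (adjusted p = 0.0417), and the long noncoding RNA Platr26 by 2.50 with all libraries and 2.11 without that one. Lcn2, an iron-siderophore carrier made by neutrophils and by stressed epithelium, read 10.56, 10.47 and 11.29 at day 14 against 8.95, 9.36 and 8.13 at day 8 (difference 1.96, SE 0.35, adjusted p = 0.0142, and 1.61 without the third day 8 library). Mir6236 differed by 2.11, but a count at a microRNA locus in an mRNA library is not a level of the mature microRNA. It read 5.78, 4.83 and 6.64 at day 14, where Rn45s had the same order (14.77, 13.11 and 15.68), and 3.63, 3.03 and 4.25 at day 8, where Rn45s had another (12.61, 12.73 and 13.54). Mir6236 passed in 2 of the 6 fits that leave out a library, without the third day 8 or the second day 14 library, while Wif1, Dcpp1, Tex101, Scara5, Efna1, Esyt3, Igfbp2 and Platr26 passed in 5.

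The 3 genes with the smallest p were Trpm4, Lypla1 and Antxr1, which were tight within groups. Trpm4, a calcium-activated cation channel, read 4.98, 4.97 and 4.94 at day 14 and 3.56, 3.75 and 3.31 at day 8 (difference 1.43, SE 0.17, adjusted p = 0.013, and 1.31 without the third day 8 library). Antxr1, a collagen-binding receptor also used by anthrax toxin, read 5.94, 6.04 and 6.54 at day 14 against 4.80, 4.49 and 4.37 at day 8. Lypla1, which removes palmitate from proteins, fell to 5.79, 5.88 and 6.00 at day 14, against 6.82, 6.92 and 6.94 at day 8. Lifr, the receptor for leukaemia inhibitory factor, differed by 1.54 and Sdc4, a heparan sulphate proteoglycan, by 1.74, and both also passed without the third day 8 library (adjusted p = 0.0403 for each).

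Among the falls that passed with and without the third day 8 library, Dab2, an adaptor that loads cargo into clathrin pits (chr15:6299788-6440712, plus strand, mm10), had the largest difference. It read 5.03, 5.09 and 4.68 at day 14 and 8.68, 7.02 and 7.99 at day 8, a difference of -2.96 (SE 0.47, adjusted p = 0.014), and -2.91 without the third day 8 library (adjusted p = 0.0435). Btnl2, a butyrophilin relative that restrains T cells in mice, read 0.14, 0.58 and 0.00 at day 14 against 4.39, 1.95 and 3.14 at day 8. Its day 14 libraries held few reads or none, and its difference was -2.92 (-2.93 without the third day 8 library). Jak2, the kinase of cytokine receptors, read 3.66, 3.73 and 3.92 at day 14 against 6.43, 5.03 and 5.58 at day 8 (difference -1.91, SE 0.35, adjusted p = 0.0142, and -1.96 without that library). Arhgef3, a guanine nucleotide exchange factor, differed by -1.78 (-1.62 without it). Ell2, an elongation factor of RNA polymerase II, differed by -1.65, the small GTPase Arl4c by -1.47, the lymphocyte adaptor Sash3 by -1.47 and Slfn9, of the schlafen family, by -1.94. Susd1 (-1.71) and Rnf141 (-1.40) passed in 2 and 3 of the 6 fits that leave out a library, and the other 8 in 5.

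Other large differences passed only with the third day 8 library in place. Arg1, arginase 1 of wound-type macrophages, read 4.55, 4.51 and 4.02 at day 14 and 8.93, 6.57 and 7.62 at day 8, where the difference of -3.35 had an adjusted p of 0.0421 with it and 0.103 without it. Npl, a sialic acid lyase, Stard8, Rab3il1 and Kctd12 differed by -3.94, -3.49, -3.29 and -3.22, and their adjusted p without the library lay between 0.0542 and 0.0925. Without it the differences of Arg1, Npl, Stard8, Rab3il1 and Kctd12 were -3.39, -4.04, -3.51, -3.17 and -3.10. Upward, Pglyrp1, an antibacterial protein of neutrophil granules, differed by 2.75, Wfdc18 by 2.50, Pde4c, which breaks down cyclic AMP, by 2.21 and the magnesium carrier Nipal4 by 2.16. Without the library the differences of Pglyrp1, Wfdc18, Pde4c and Nipal4 were 2.12, 2.16, 2.06 and 1.86, with adjusted p between 0.0591 and 0.122. A few genes passed only without the library: Shisa4 (1.43), Mgst3 (1.39), Cuedc1 (1.28) and Zfp651 (0.89) higher, Foxn2 (-0.90) and Tbc1d5 (-0.88) lower.

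**Figure D2:**
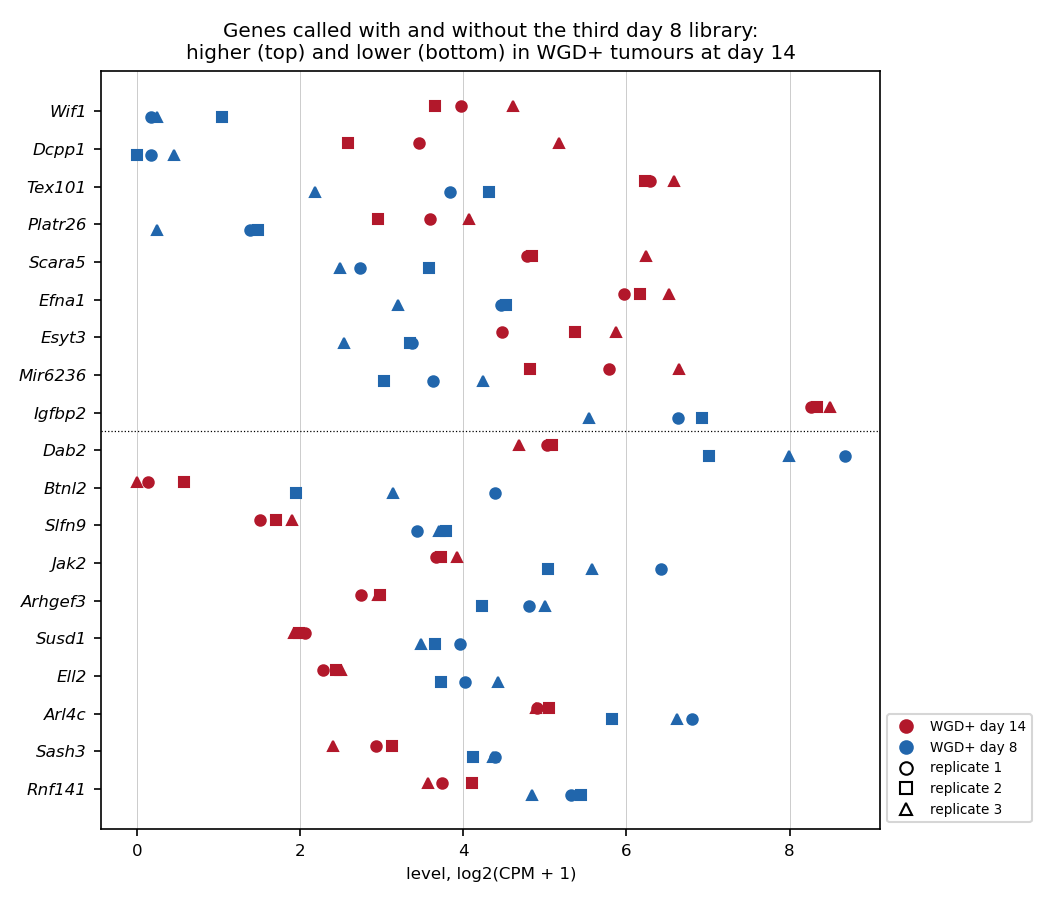
Levels of 19 genes in the 3 WGD+ day 14 libraries (red) and the 3 WGD+ day 8 libraries (blue), on a log2(CPM + 1) axis, with 9 of the 10 largest rises above the dotted line and the 10 largest falls below it among genes that passed with and without the third day 8 library. No gene of the 19 has overlapping groups, a trait of 41.7% of all genes tested. The third day 8 library (blue triangle) is the lowest of the 6 for Tex101, Platr26, Scara5, Efna1, Esyt3 and Igfbp2.

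Part of the unfolded protein response was higher at day 14. In the unfolded protein response list 4 of 13 tested members rose and 0 fell, with a median difference of 0.90, against 7.0% of all genes rising and a median of -0.05. Syvn1, the ubiquitin ligase that clears misfolded proteins from the endoplasmic reticulum, read 5.80, 5.69 and 5.71 at day 14 and 4.46, 4.77 and 3.67 at day 8 (difference 1.44, SE 0.24, adjusted p = 0.014). The chaperone Hsp90b1 read 10.76, 10.71 and 10.42 at day 14 against 9.81, 9.78 and 8.76 at day 8 (1.18), the disulphide isomerase Pdia4 8.31, 8.43 and 7.98 at day 14 against 7.45, 7.68 and 6.25 at day 8 (1.11), and the calcium-binding chaperone Calr 9.61, 9.82 and 9.76 at day 14 against 8.93, 9.07 and 8.16 at day 8 (1.01). Each day 14 value of these 4 lay above each day 8 value, as in 8 of the 13 tested members and 19.8% of all genes. Hspa5, the main chaperone of the compartment, read 9.07, 9.40 and 9.17 at day 14 against 8.56, 8.70 and 7.62 at day 8 and missed the threshold (adjusted p = 0.06). Without the third day 8 library, the lowest of its group for all 5, the list's median was 0.56 and Syvn1 alone passed (1.12, adjusted p = 0.0403). The count was 8 without the second day 8 library, 2 without the first, 1 without the first or second day 14 library and 0 without the third.

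The promoters of 3 of the 4 members that rose hold letters that match the element bound by activators of this response, known as ERSE. A match is a description and not a shown site. It was searched on both strands as CCAAT followed by any 9 bases and CCACG in RefSeq windows from 250 bases before to 50 bases after the start of each gene (build GRCm38.p6). The element was present in 39 of 32851 windows (0.119%), in those of 0.171% of tested genes, and in those of 6 of the 11 list genes that have a window. This list is built around known genes of the response, so the share is a description. The 3 windows are shown because their genes rose, each read 5′ to 3′ on its gene's strand, with the element in capitals on whichever strand it matched.
Syvn1 (chr19:6046326-6046625, plus strand): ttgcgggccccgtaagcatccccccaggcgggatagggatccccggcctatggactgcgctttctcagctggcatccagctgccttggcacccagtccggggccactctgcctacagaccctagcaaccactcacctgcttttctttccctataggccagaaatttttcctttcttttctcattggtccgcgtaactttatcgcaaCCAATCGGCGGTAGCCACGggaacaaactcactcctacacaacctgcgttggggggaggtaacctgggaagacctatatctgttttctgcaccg
Hsp90b1 (chr10:86705395-86705694, minus strand): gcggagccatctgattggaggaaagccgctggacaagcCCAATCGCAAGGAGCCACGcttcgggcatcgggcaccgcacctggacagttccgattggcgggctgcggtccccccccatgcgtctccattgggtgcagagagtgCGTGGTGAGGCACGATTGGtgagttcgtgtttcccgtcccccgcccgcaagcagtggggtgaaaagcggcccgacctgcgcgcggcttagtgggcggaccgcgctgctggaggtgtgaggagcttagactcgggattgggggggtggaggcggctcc
Calr (chr8:84846882-84847181, minus strand): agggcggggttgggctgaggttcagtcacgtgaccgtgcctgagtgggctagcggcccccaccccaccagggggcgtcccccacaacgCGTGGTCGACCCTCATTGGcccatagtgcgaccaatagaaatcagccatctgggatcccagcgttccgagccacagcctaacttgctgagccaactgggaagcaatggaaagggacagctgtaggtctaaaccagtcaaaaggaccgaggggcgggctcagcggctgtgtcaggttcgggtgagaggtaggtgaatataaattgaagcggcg
Hsp90b1 holds the element in both directions, Syvn1 in the forward and Calr in the reverse direction. Pdia4, the other member that rose, has none in its window, which says only that these letters are absent there.

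Machinery that brings proteins into the reticulum, glycosylates them and sorts them onward was grouped in lists chosen after the values were seen, so their counts are descriptions. Of 22 translocon and signal peptide processing genes 10 rose and 0 fell, of 11 oligosaccharyl transferase genes 6 and 0, of 9 TMED cargo receptors 5 and 0, and of 13 YIPF and ERGIC genes 8 and 0, where 7.0% of all genes tested rose. Sec63, a member of the translocon list, read 6.83, 6.69 and 6.85 at day 14 and 5.61, 5.86 and 4.93 at day 8 (difference 1.32, and 1.06 without the third day 8 library, adjusted p = 0.0403). The glycosylation subunit Rpn1 read 9.19, 9.26 and 8.98 at day 14 against 8.05, 8.48 and 7.18 at day 8, and passed with all libraries (1.24) but not without the third day 8 library (0.87, adjusted p = 0.0668). Ergic3, a cargo receptor between reticulum and Golgi, read 8.37, 8.28 and 8.26 at day 14 against 7.18, 7.31 and 6.54 at day 8 (1.29, and 1.06 without that library). Yipf3, a Golgi membrane protein, read 6.64, 6.71 and 6.64 at day 14 against 5.43, 5.78 and 5.13 at day 8. In all 4 genes day 14 lay above day 8 in every library, as in 19.8% of all genes tested. In the 4 lists 13, 9, 6 and 11 members lay wholly above, and 1, 0, 1 and 0 wholly below. Without the third day 8 library 1, 0, 2 and 4 genes of the 4 lists rose, where 1.37% of all genes did. Over the WGD+ libraries left out singly the counts ran from 0 to 13, 0 to 8, 0 to 7 and 0 to 8, with 0 in each list without the third day 14 library. Of 20 COPI and COPII genes, which build the coats of transport vesicles, 0 passed, with a median of -0.13.

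Cholesterol synthesis had the largest median of any list, 1.15, with 9 of 16 tested members higher and 0 lower (7.0% of all genes were higher). Cyp51, which demethylates lanosterol, read 7.28, 7.24 and 6.97 at day 14 and 5.64, 6.28 and 4.43 at day 8 (difference 1.71, SE 0.38, adjusted p = 0.0214). Msmo1, a later oxidase of the pathway, read 5.63, 6.14 and 6.15 at day 14 against 4.48, 4.94 and 3.46 at day 8 (1.68). In both genes each day 14 library lay above each day 8 library, as in 13 of the 16 tested members and 19.8% of all genes. Sqle and Dhcr7, an earlier and a late enzyme, differed by 1.57 and 1.52, and Fdft1, which commits carbon to sterols, by 0.77. Insig1 and Srebf2, a brake and an activator of the pathway, differed by 1.21 and 1.05. These differences of Sqle, Fdft1, Insig1 and Srebf2 were 1.21, 0.66, 0.89 and 0.79 without the third day 8 library. In that fit, without the lowest library for each gene named, the median was 0.84 and Cyp51 (1.20), Msmo1 (1.26) and Dhcr7 (1.20) passed, where 1.37% of all genes rose. The count was 11 without the second day 8 library, 3 without the first day 14 library, and 0 without the first day 8, the second day 14 or the third day 14 library.

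Genes known to answer low oxygen were higher at day 14 in 4 of 16 tested members, with 0 lower and a median of 0.94 (0.74 without the third day 8 library, when 0 passed). Of all genes tested 7.0% were higher. Car9, a carbonic anhydrase of the cell surface, read 5.82, 5.68 and 6.31 at day 14 and 3.60, 3.62 and 3.46 at day 8, a difference of 2.37 (SE 0.49, adjusted p = 0.0185) that was 2.33 (adjusted p = 0.063) without that library. Vegfa, the signal for new vessels, read 7.56, 7.72 and 8.87 at day 14 against 6.09, 6.21 and 6.30 at day 8 (1.85). Slc2a1, the glucose carrier, read 9.88, 10.08 and 11.18 at day 14 against 8.85, 8.91 and 7.91 at day 8 (1.82), and Ndrg1 9.41, 9.12 and 10.04 at day 14 against 8.01, 8.29 and 7.55 at day 8 (1.57). Without the third day 8 library Vegfa, Slc2a1 and Ndrg1 differed by 1.90, 1.50 and 1.37 (adjusted p = 0.104, 0.0542 and 0.125). The third day 14 library was the highest for all 4. The number that passed was 1 without the first or second day 14 library or the first day 8 library, 3 without the second day 8 library and 0 without the third day 14 library. The core of the element bound by hypoxia-inducible factors, ACGTG, was found on either strand in 19.6% of all promoter windows. Counted by gene instead, it was in any window of 28.9% of the tested genes with a window, and of 13 of the 17 list genes with a window. Those 13 include Ero1a, which was not among the genes tested. This list is built around known genes of the low oxygen response, so the share is a description, and a match is not a shown site. The window of Car9, the member with the largest difference, is shown with its single match in capitals, on the reverse strand.
Car9 (chr4:43506776-43507075, plus strand): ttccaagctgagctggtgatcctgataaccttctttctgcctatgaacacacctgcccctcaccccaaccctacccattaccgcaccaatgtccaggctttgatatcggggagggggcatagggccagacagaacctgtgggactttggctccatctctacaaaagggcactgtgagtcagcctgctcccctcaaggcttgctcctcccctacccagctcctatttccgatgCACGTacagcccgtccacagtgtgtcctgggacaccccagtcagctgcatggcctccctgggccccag

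Some genes of the basement membrane, laminins and perlecan among them, were also higher at day 14. Of 12 tested members 4 rose and 0 fell, with a median of 0.96, against 7.0% of all genes rising and a median of -0.05. They include the laminin chains Lama5 (1.43) and Lamc1 (1.01) and Hspg2, perlecan (1.09). Lama5 read 7.32, 7.58 and 7.96 at day 14 and 5.95, 6.84 and 5.78 at day 8. Hspg2 read 7.90, 8.01 and 8.45 at day 14 against 7.23, 7.09 and 6.76 at day 8, so neither overlapped. The groups did not overlap upward in 8 of the 12 members and downward in 1, beside 19.8% and 21.9% of all genes. None of the list passed without the third day 8 library, when Lama5, Hspg2 and Lamc1 had an adjusted p of 0.0674, 0.0958 and 0.0989 and the list median was 0.66. The count was 6 without the second day 8 library, 1 without the first day 14 library and 0 without the first day 8 library or without the second or the third day 14 library. Mmp14, a membrane protease that cuts matrix, read 8.38, 8.47 and 8.65 at day 14 against 7.85, 7.19 and 6.76 at day 8 and passed with (1.23) and without that library (0.98, adjusted p = 0.0469). It was the only 1 called of 14 tested matrix protease and inhibitor genes, where 7.0% of all genes rose. The median of those 14 was 0.10, and -0.06 without that library. Of 13 tested keratin and epithelial junction genes 2 rose and 0 fell, with a median of 0.53. Without the third day 8 library the median was 0.31, 0 passed and 8 of 13 were higher on average. Of these genes Cdh1, E-cadherin, read 6.26, 6.25 and 6.45 at day 14 against 4.79, 5.81 and 3.41 at day 8 (1.65), and Epcam 8.22, 8.23 and 8.18 at day 14 against 6.57, 7.60 and 5.54 at day 8 (1.64). Cdh1 and Epcam were lowest in the third day 8 library, without which the differences were 1.02 and 1.13 and did not pass (adjusted p = 0.102 and 0.0673). The muscle RNA of that library stands beside these values, and its part in them was not tested.

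**Figure D3:**
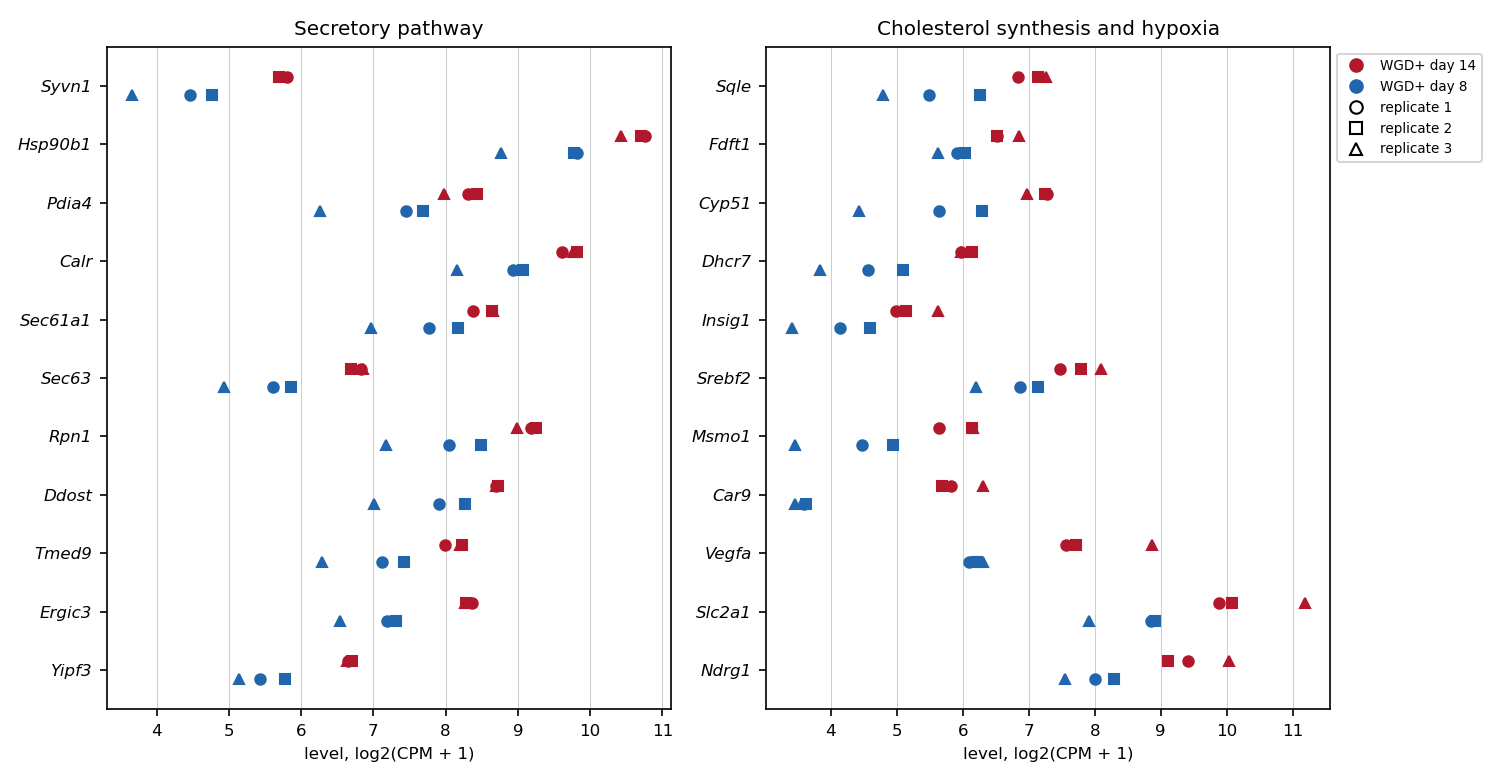
Levels in the 3 WGD+ day 14 libraries (red) and the 3 WGD+ day 8 libraries (blue), log2(CPM + 1), for 11 genes of the secretory pathway on the left, and 7 genes of cholesterol synthesis with 4 genes of the hypoxia list on the right. In every secretory and cholesterol gene drawn the third day 8 library (blue triangle) is the lowest of the 6. For Cyp51 the day 14 libraries sit between 6.97 and 7.28 and the day 8 libraries between 4.43 and 6.28.

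Some interferon-induced genes were lower at day 14. In the type I interferon list 0 of 20 members rose and 4 fell (4.23% of all genes fell), with a median of -0.81. Ifi44 read 4.27, 4.20 and 3.29 at day 14 and 5.11, 6.61 and 5.66 at day 8 (difference -1.88, SE 0.38, adjusted p = 0.0172). Ifit2, which blocks translation of viral RNA, read 3.94, 4.06 and 3.33 at day 14 against 4.87, 5.79 and 5.35 at day 8 (-1.56). Ifih1, the sensor of double-stranded RNA, and Cmpk2 differed by -1.84 and -2.21. The groups of these 4 genes did not overlap, as in 11 of the 20 members (21.9% of all genes did so downward). Without the third day 8 library the median was -0.84 and none passed, with adjusted p between 0.0515 and 0.0926. The count was 3 without the first day 14 library, 2 without the second day 14, first day 8 or second day 8 library and 0 without the third day 14 library. In the interferon-gamma list 0 of 18 passed, with a median of -0.71. The MHC class I presentation list had 0 of 14 called and a median of 0.50 (0.19 without the third day 8 library). In that list 9 of 14 members were higher on average at day 14.

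Cytotoxic lymphocytes left little RNA in WGD+ tumours at either day. The 14 genes of the list summed to 18.1, 17.8 and 4.31 CPM at day 14 and 20.5, 21.4 and 16.1 CPM at day 8, with 2 to 4 of the 14 at 0 in each library, and 0 of 10 tested members passed. Gzmb, granzyme B, read 1.83, 1.42 and 0.34 at day 14 against 2.20, 2.06 and 2.18 at day 8 (-0.95, adjusted p = 0.217). Macrophage genes were lower on average in all 16 members, with a median of -1.20 (-1.17 without the third day 8 library), but 0 passed. All 16 were detected in each of the 6 libraries. Their summed level was 868, 705 and 341 CPM at day 14 and 1954, 624 and 1234 CPM at day 8, so the groups overlapped through the second day 8 library. Cd163, a scavenger receptor of resident macrophages, read 3.94, 3.17 and 3.91 at day 14 against 8.62, 5.49 and 6.37 at day 8 (adjusted p = 0.077). Dab2, Npl, Stard8 and Arg1 also had their highest value in the first day 8 library, where the macrophage sum was highest, and the part of macrophages in those falls was not tested. Singly, Ccr2 of inflammatory monocytes (-2.34), the dendritic cell receptor Ccr7 (-1.34), the chemokine Ccl22 (-1.45) and the histamine enzyme Hdc (-0.99) fell. Without the third day 8 library these differences were -2.19, -1.44, -1.26 and -0.77, and none passed (adjusted p between 0.0766 and 0.158). The neutrophil granule gene Ngp read 1.91, 1.62 and 2.38 at day 14 against 0.32, 0.14 and 0.00 at day 8, and likewise passed with that library (1.82) but not without it (1.74, adjusted p = 0.0826). In the neutrophil and monocyte list as a whole 2 of 11 tested members rose and 1 fell, beside 7.0% and 4.23% of all genes. Its median was 0.01 (0.25 without the third day 8 library). The groups did not overlap upward in 4 members and downward in 4, beside 19.8% and 21.9% of all genes.

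Day effects were then compared between the forms with an interaction term. In 461 genes (3.42%) the day 14 minus day 8 difference was not the same in WGD+ and WGD- tumours, 214 (1.59%) more positive and 247 (1.83%) more negative in WGD+. The count was 189 (1.4%) without the third WGD+ day 8 library, with 78 (0.579%) more positive and 111 (0.824%) more negative, and 25 without that library and its WGD- namesake, the pair whose genotype scores were crossed. Without 1 library in turn it lay between 28, without the second WGD- day 14 library, and 797, without the first WGD- day 8 library. In WGD- tumours 114 genes (0.846%) passed, 111 (0.824%) higher and 3 (0.0223%) lower at day 14. The guanylate-binding protein Gbp5, an interferon-gamma target, read between 1.37 and 3.20 in WGD+ tumours at day 14 and 4.03, 4.44 and 3.62 at day 8, while WGD- tumours read 6.87, 6.20 and 5.29 at day 14 and 1.27, 1.49 and 2.30 at day 8. The day effect of Gbp5 thus had opposite signs, though its fall in WGD+ tumours was not called. Its difference of effects was -5.94 (SE 0.72, adjusted p = 0.00745). That difference was called in all alternatives run, including those without the third WGD+ day 8 library (-6.14) and without both crossed libraries (adjusted p = 0.0381). In the interferon-gamma list 13 of 18 members had a more negative day effect in WGD+ (median -3.88), 10 without the third WGD+ day 8 library, 3 without the second WGD- day 14 library and 2 without both crossed libraries. The type I list had 11 of 20 (9, 3 and 1 in the same fits) and cytotoxic lymphocytes 5 of 10 (1, 1 and 1). Over all 12 libraries left out singly the counts of the 3 lists ran from 3 to 14, 3 to 18 and 1 to 8, lowest each time without the second WGD- day 14 library (for cytotoxic lymphocytes also without 4 others) and highest without the first WGD- day 8 library (for cytotoxic lymphocytes the third WGD- day 14 library). In WGD- tumours by themselves 12 of 18 interferon-gamma members were called higher at day 14 (median 3.38). So were 7 of 20 type I and 6 of 10 cytotoxic members, where 0.824% of all genes were higher. In WGD+ tumours by themselves 0, 4 and 0 members of these lists were called lower. Gzmb read 5.55, 5.06 and 3.86 in WGD- tumours at day 14 and 0.27, 0.12 and 1.33 at day 8, and its effects differed by -5.20 (adjusted p = 0.00952).

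More positive day effects in WGD+ were seen for Esyt3, Scara5, Ggt7, Ackr3 and Clstn1. Esyt3 read 4.25, 3.47 and 4.36 in WGD- tumours at day 14 and between 4.82 and 5.07 at day 8, and its difference of effects was 3.09 (adjusted p = 0.0185). That of Scara5 was 3.10 (adjusted p = 0.0231), of the glutamyl transferase relative Ggt7 3.10, of the chemokine scavenger Ackr3 2.74 and of Clstn1, calsyntenin, 2.65. All 5 kept an adjusted p under 0.05 without the third WGD+ day 8 library (0.0323 to 0.0495), and none did without both crossed libraries (0.0669 to 0.0916). In the basement membrane list 5 of 12 members had a more positive day effect in WGD+, and 2 without the third WGD+ day 8 library, among them Lamc1 (1.77, and 1.50 without it). Of all genes 1.59% were more positive, and 0.579% without that library. The count was 0 without the first or second WGD- day 14 library or the second or the third WGD+ day 14 library, 1 without the first WGD+ day 8 library and 2 without the second WGD- day 8 library. Cholesterol synthesis had 0 of 16 and the unfolded protein response 0 of 13 (4 and 1 without the second WGD+ day 8 library), so a difference of these lists between the forms was not shown with all libraries.

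**Figure D4:**
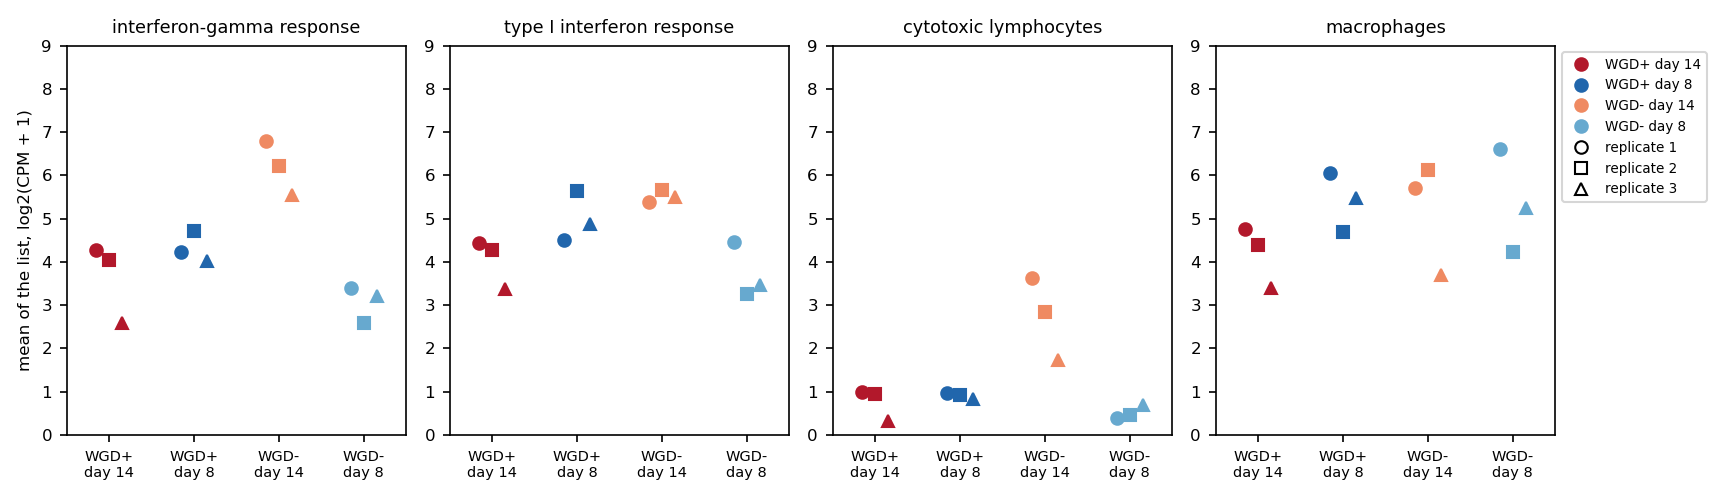
Mean level, log2(CPM + 1), of the genes of 4 immune lists in each of the 12 libraries, with WGD+ tumours at day 14 and day 8 on the left and WGD- tumours on the right. In the interferon-gamma panel the WGD+ libraries sit between 2.59 and 4.29 at day 14 and between 4.02 and 4.71 at day 8, while the WGD- libraries sit between 5.54 and 6.79 at day 14 and between 2.60 and 3.39 at day 8.

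All 12 libraries were then ranked for the genes that changed. Among the 179 genes (1.33%) that rose with and without the third day 8 library, all 3 WGD+ day 14 libraries lay above the other 9 libraries in 66 (36.9%), and all 3 WGD+ day 8 libraries lay below the other 9 in 142 (79.3%). The choice of genes already fixes the order of the WGD+ groups, so the same shares were taken over the 2675 genes whose WGD+ day 14 libraries all lay above the day 8 libraries, where they were 16.6% and 28.3%. For the 87 genes (0.645%) that fell with and without it, the WGD+ day 14 libraries were below the other 9 in 39 (44.8%) and the WGD+ day 8 libraries above the other 9 in 44 (50.6%), against 12.3% and 14.0% of the 2948 genes with the reverse order. The 179 and 87 genes were also chosen by their adjusted p, so these shares are descriptions. The ranks include both day 8 libraries numbered 3, whose genotype scores were crossed, and were not repeated without them. Antxr1 is an example, at 5.94 to 6.54 in WGD+ day 14 libraries, 4.37 to 4.80 in WGD+ day 8 libraries, and 5.32 to 6.33 across WGD- libraries of both days.

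Genes of the antioxidant response fell in 3 of 12 tested members and 0 rose, with a median of -0.43, where 4.23% of all genes fell. Gclc and Gclm, the subunits of the enzyme that starts glutathione synthesis, differed by -0.80 (SE 0.16, adjusted p = 0.0163) and -0.75, and G6pdx, which feeds NADPH to it, by -0.69. Gclc read 5.33, 5.46 and 5.29 at day 14 and 6.03, 6.36 and 6.11 at day 8, and alone passed without the third day 8 library (-0.83, adjusted p = 0.0466). The count was 2 without the first day 8 library, 1 without the second day 8 or second day 14 library and 0 without the first or the third day 14 library. Replication genes had 0 of 18 called and a median of -0.48 (-0.49 without the third day 8 library), and in 9 members the day 14 libraries all lay below the day 8 libraries, as in 21.9% of all genes. Pcna, the sliding clamp of DNA polymerase, read 8.39, 8.65 and 8.21 at day 14 against 8.89, 9.01 and 8.98 at day 8 (adjusted p = 0.0653). Mitotic genes had 0 of 17 and a median of -0.03.

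In the lists added after the values were seen, nuclear import carriers fell in 6 of 17 members and 0 rose, where 4.23% of all genes fell. Kpna3 and Kpna4, importins alpha, differed by -1.01 and -1.03 and passed with and without the third day 8 library, as did Ipo7 (-1.01, and -1.16 without it), which passed in no other fit that leaves out a WGD+ library. The count was 2 without each of the other WGD+ libraries but the third day 14 library, where it was 0. Actin nucleation genes fell in 4 of 16 and 0 rose, beside the same 4.23%, and Actr2, a core subunit of the ARP2/3 complex, differed by -0.77 (-0.83 without the third day 8 library, adjusted p = 0.0403). That count was 1 or 2 without each WGD+ library but the third day 14 library, where it was 0. Among single members of the remaining lists Fosb, an immediate early transcription factor, rose with (1.68) and without the third day 8 library (1.66, adjusted p = 0.0417). Ier3 (1.23), the stress cytokine Gdf15 (1.99), the amino acid carrier Slc7a5, transferrin Trf (1.92), the small heat shock protein Hspb1 (1.17) and Egfl7 of vessels (0.91) passed only with it. Their lists had 2 of 15 immediate early, 1 of 15 p53 target, 1 of 16 amino acid stress and 1 of 2 liver genes higher. Heat shock had 1 of 12 and endothelial cells 1 of 13, where 7.0% of all genes rose. The endothelial median was 0.07, and -0.15 without the third day 8 library, when 4 of 13 members were higher on average. Of the 40 lists not added after the values were seen 39 had a tested member, 21 had a called one, and 6 had one without the third day 8 library.

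**Figure D5:**
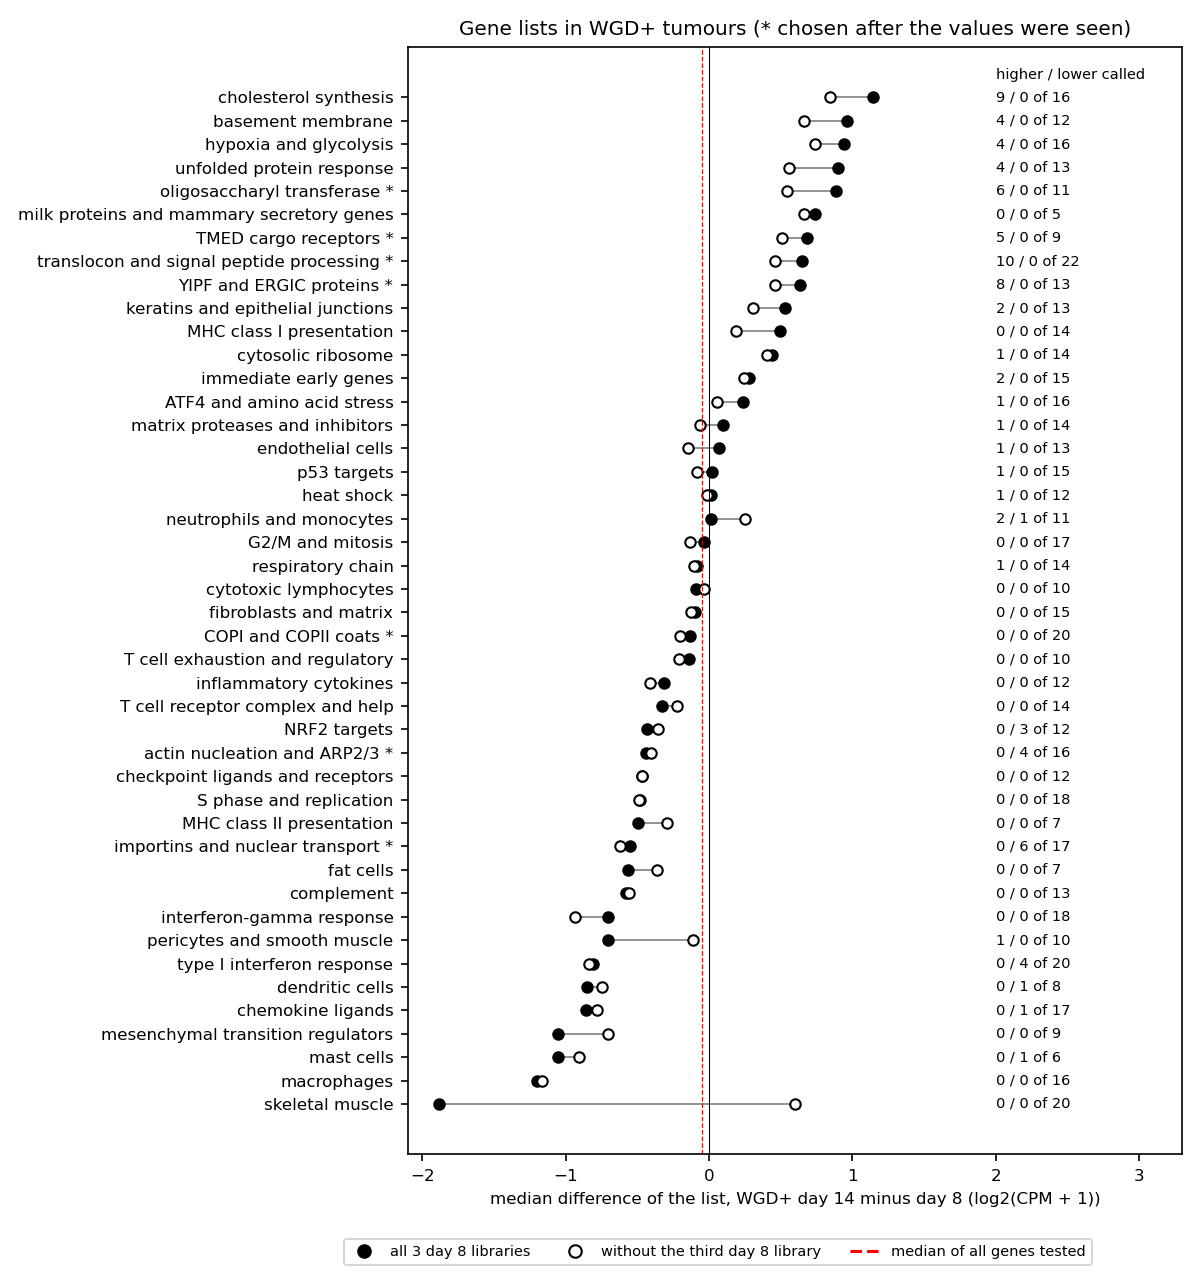
Median difference, WGD+ day 14 minus day 8 on the log2(CPM + 1) scale, of each list with at least 3 tested genes, with all libraries (filled) and without the third day 8 library (open), and at the right the number of members called higher and lower of those tested. Cholesterol synthesis is at the top with 1.15, and skeletal muscle is at -1.88 with that library and at 0.60 without it. The dashed line is the median of all genes tested, -0.05.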

How the data were processed

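RNA was measured in 12 time course tumours. Per the labels' protocols total RNA came from a Qiagen kit and 500 ng went into a stranded TruSeq mRNA preparation. The submitters' processing notes name STAR 2.5.1b, edgeR and the mm10 build. Counting tool and annotation: not given in the sources used here. The authors deposited log2 values under a name that gives them as log2 CPM after TMM scaling. Read as log2(CPM + 1), 100% of the values examined came within 0.1 of a whole read, which gave each library's depth, and 1 read is worth 0.0828 to 0.185 CPM.

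Titles gave the groups. A gene entered the test if it exceeded 1 CPM in 3 or more libraries. The linear model, 1 mean for each of the 4 groups, was fitted in limma 3.58.1 (R 4.3.3) with a mean-variance trend and robust empirical Bayes, and p-values were adjusted by Benjamini-Hochberg over all 13478 genes and called at 0.05. The code was tested on simulated data. Gene positions follow GENCODE M21 (mm10), which matched 96.5% of symbols. Symbols turned into dates (27) were left out. GC content and length are of GENCODE transcripts, and promoter windows of RefSeq (GRCm38.p6). The genotype score uses 85 genes higher and 177 lower, at least 2-fold and called, in NSG WGD+ against NSG WGD- vehicle tumours, and 18 other columns of that table were not used.

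The members, lists and tests were chosen with earlier results of these data known, and no pattern is independent support for those. Genes named are the 10 largest differences each way called with and without the third day 8 library, up to 5 each way called in 1 of these fits only, up to 4 called members of a list (otherwise the smallest p), and 5 differences of day effects each way, all but the list members with a mean of at least 3 in the higher group. Named after their values were seen were Trpm4, Lypla1, Antxr1, Lifr, Sdc4, Hspa5, members of the lists added later, cholesterol members beyond 4 and, for the difference of day effects, Lamc1 and Gzmb. A few genes that met these rules are not reported here, and all counts include them. Alternatives were filters, the pseudocount, quantile normalization, voom on recovered reads, only the libraries compared, a muscle covariate, the replicate block, each library left out and a GC trend removed.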

Additional observations from a re-analysis of the deposited data

Results flagged for a closer look

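Results are listed here because the day effect itself differed between WGD+ and WGD- tumours by a test of the interaction, and the values come without explanation. The count of such genes was 461 of 13478. More positive in WGD+ tumours were Scara5 with a difference of day effects of 3.10, Ggt7 with 3.10, Esyt3 with 3.09, Ackr3 with 2.74 and Clstn1 with 2.65, on the log2(CPM + 1) scale. More negative were the interferon-induced GTPase genes Gbp5 with -5.94, Gbp2b with -5.54, Ifi47 with -5.52 and Gbp4 with -5.49, and Clec7a, the fungal glucan receptor of myeloid cells, with -5.62. Clec7a read 4.29, 3.83 and 1.51 in WGD+ tumours at day 14 and 5.25, 5.13 and 4.89 at day 8, while WGD- tumours read 6.37, 7.43 and 5.56 at day 14 and 2.28, 2.98 and 2.90 at day 8. Of these 10 genes Gbp5 alone passed without both day 8 libraries numbered 3, at an adjusted p of 0.0381.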

How the results depend on the processing

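Every count below is of genes past an adjusted p of 0.05 in limma. For day 14 against day 8 in WGD+ tumours the 1514 genes became 1006 with no filter, 908 with voom on recovered reads, 948 with the replicate block and 674 with the muscle level as covariate. It was 1654 with the 5 CPM filter, 1587 with the smaller pseudocount, 1602 with quantile normalization and 2164 with the WGD+ libraries alone (1105 higher and 1059 lower). Leaving out single WGD+ libraries gave 0 to 1458, and single WGD- libraries 1144 to 2202. Without the third WGD+ day 8 library (273), quantile normalization gave 266, removing the GC trend 208, and both voom and the replicate block 0, where 2939 and 2660 genes had an unadjusted p under 0.05. The other WGD+ libraries alone gave 1701 in that case (843 higher and 858 lower). It was 568 without both day 8 libraries numbered 3, and 932 with the GC trend removed and the replicate block. For the difference of day effects the 461 genes became 235 with no filter, 289 with voom and 231 with the replicate block, and single libraries left out gave 28 to 797. Without the third WGD+ day 8 library (189) it was 45 with voom, 247 with quantile normalization, 28 with the replicate block and 103 with the GC trend removed, and 25 without both day 8 libraries numbered 3. The GC trend removed with the replicate block gave 166. The cause of these shifts was not tested.

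For the genes named in the day comparison, across alternatives, 1949 values kept direction and side of the threshold, 685 kept direction and lost the call, 49 gained it and 24 values of genes without a call changed sign. No called gene reversed. For the differences of day effects 229 kept both and 41 lost the call. Same-numbered day 14 and day 8 libraries had deviations from their group means that correlated at 0.0236, 0.0559 and 0.104. Those with different numbers correlated at -0.110 to 0.106. The labels do not say that a number marks a shared batch, so the numbers were not taken as pairs. The replicate block only removes differences between numbers. The alternatives added after seeing the data were the GC corrections and the fit without both libraries numbered 3. Depth limits what can be said of genes near 1 CPM.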
